A study of Drosophila melanogaster with 3 samples.

Results

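Broad Myc peaks on the distal parts of 4 chromosome arms of Drosophila melanogaster are described here. The peaks were selected on their width and position in 1 deposited list of ChIP-seq peaks from Kc167 cells: a width of 450 bp or more, and a start under 21 Mb on 2L, under 22.38 Mb on 3L, over 2 Mb on 3R or under 20.42 Mb on X. Of 9897 peaks in the list, 198 met this rule. The same stretches held 298 narrower peaks, so 39.9% of their 496 peaks were broad. Coordinates are those of FlyBase release 5.

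Kc167 is an established embryonic cell line of labelled genotype se/e, labelled female and of late embryonic stage. Chromatin from 2 samples was immunoprecipitated with a rabbit polyclonal antibody named MycN against the product of the gene dm, and 1 input sample of the same line was sequenced without immunoprecipitation. The ChIP and input samples share the line and genotype, and no treatment separates them. The list gives 1 width and 1 score per peak for the whole series, with no value per replicate, so no replicate error, depth or test of a difference can be attached to any value below. The score was given by the authors' peak caller with no stated scale, and it was used only within this list, to rank, describe and group peaks. A peak list holds no expression values, so the identity of the line was not checked against marker genes.

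Myc is a basic helix-loop-helix leucine zipper transcription factor that binds DNA as a dimer with Max, often at E-box sequences near gene starts, and drives genes of ribosome production and cell growth. Transposable elements are mobile DNA families present in many copies. Full-length copies of a family share a characteristic length, copies can lie in either orientation along a chromosome, and truncated copies are shorter. Elements of the long terminal repeat (LTR) class carry the same repeat at both ends around an internal coding part. Because copies of a family are nearly alike, a short read from one copy can match many places. How such reads were treated is not given in the sources used here, and their part in any width or score below was not tested.

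The broad peaks ranged from peaks just over the threshold to unbroken peaks of 7 kb. Their median width was 914 bp, with an interquartile range of 558 to 3742 bp and a widest peak of 7016 bp. Widths were spread unevenly: 75 of the 198 (37.9%) were under 650 bp, 26 were 1000 to 2500 bp, 24 were 2500 to 5000 bp and 43 (21.7%) were 5000 bp or wider. The lowest score was 8.82, the median 31.55 and the highest 88.57, beside a median of 10.9 and a range of 6.62 to 72.66 for the narrower peaks of the same stretches. Width chose the broad peaks and came from the same comparison as the score, so this difference is a description.

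Among the broad peaks the wider ones scored higher. The 105 peaks under 1000 bp had a median score of 15.15, and 26 of them reached 30. All 24 peaks of 2500 to 5000 bp and all 43 wider peaks scored above 30, with medians of 46.4 and 62.6. Spearman's rho between width and score over the 198 peaks was 0.72 and Pearson's r was 0.79, given as a description because all peaks share the same libraries and neighbours can belong to 1 enriched region. Within the 34 unbroken single-peak loci longer than 1000 bp, described below, rank correlations were low, 0.11 over the 16 longest and 0.17 over the 18 shorter.

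**Figure D1:**
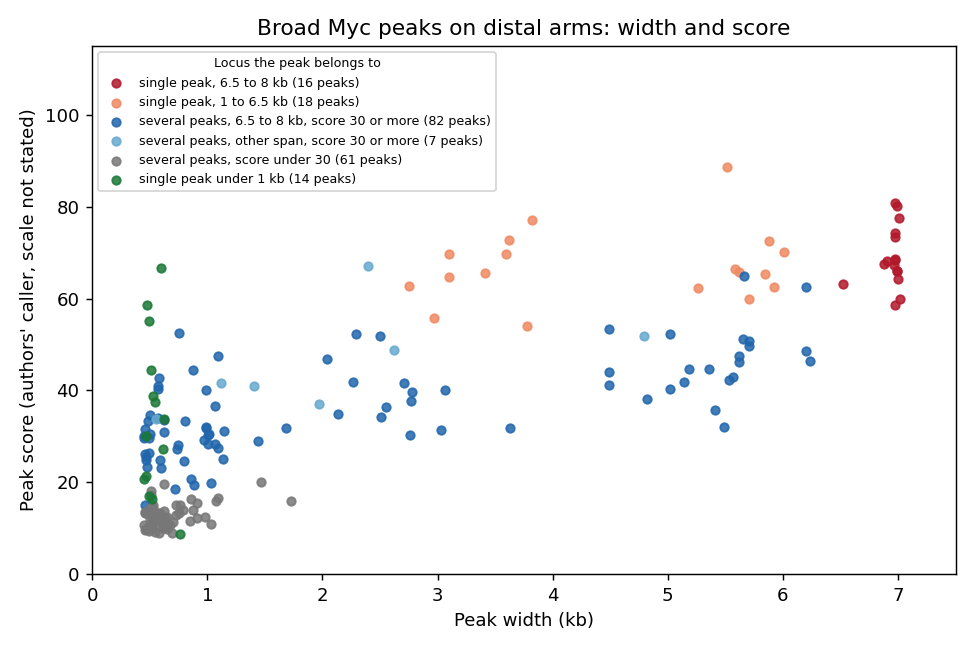
Width in kb (horizontal) against score (vertical) for each of the 198 broad peaks, coloured by the kind of locus the peak belongs to. Single peaks of 6.5 to 8 kb stack at 7 kb with scores of 58.63 to 80.83, while peaks of loci with several peaks and scores under 30 lie in the lower left.

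Near the width threshold, scores on both sides overlapped. The 8 peaks of 450 to 459 bp just inside scored 10.65 to 31.7, and the 3 peaks just outside, of 443, 444 and 446 bp, scored 31.03, 32.36 and 26.89. The narrowest peaks inside were 3L 2111236 to 2111685, 3R 6060874 to 6061323 and 3L 9071272 to 9071721, each 450 bp wide, with scores of 10.65, 20.83 and 30.07.

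To see whole enriched stretches, all peaks of the 4 distal arms with fewer than 3000 bp between them were joined. The 496 peaks gave 233 loci, of which 119 held at least 1 broad peak and 114 were made of narrow peaks alone. Of the 298 narrow peaks, 148 (49.7%) lay in a locus together with a broad peak. The 119 loci fell into 6 kinds by number of peaks, span and highest score, a division made after these values had been seen. Of the 198 broad peaks, 82 were in multi-peak loci of 6.5 to 8 kb with a highest score of 30 or more, 61 in loci of several peaks with a highest score under 30, and 16 were single peaks of 6.5 to 8 kb. A further 18 were single peaks of 1 to 6.5 kb, 14 were single peaks under 1 kb and 7 were in 2 other loci on X.

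**Figure D2:**
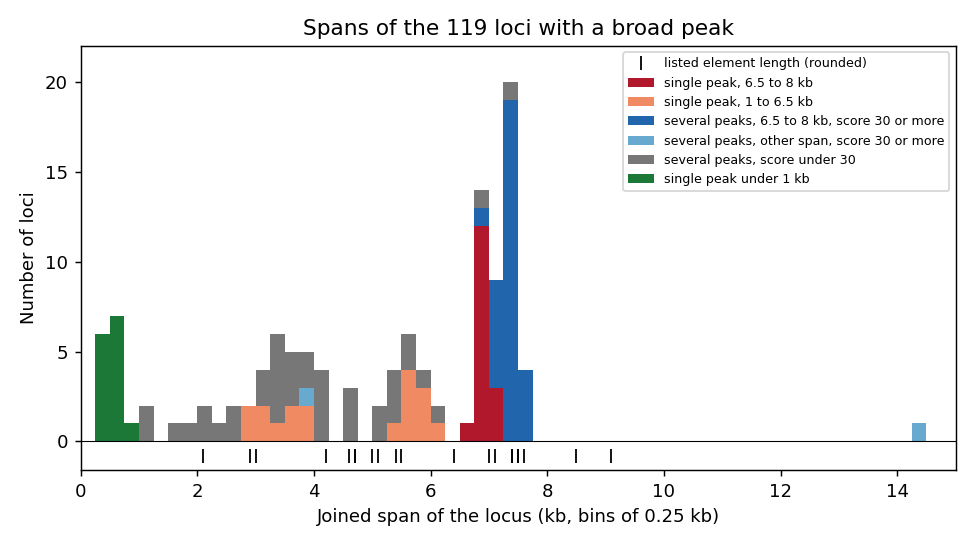
Number of loci (vertical) by joined span in kb (horizontal, bins of 0.25 kb) for the 119 loci with a broad peak, with the rounded lengths of 23 well-known transposable elements as ticks under the axis. Loci crowd between 6.5 and 8 kb, where single peaks lie at 7 kb and loci of several peaks just above, and 1 locus on X spans 14.5 kb.

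The unbroken peaks near 7 kb were close to each other in width. Of 16 single peaks of 6.5 to 8 kb, 13 were 6966 to 7016 bp wide, a range of 50 bp, with a median of 6974 bp. They lay on all 4 arms: 6 on 2L, 4 on X, 2 on 3L and 1 on 3R. Their scores were 58.63 to 80.83, with a median of 68.51.

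By score, the highest of these was 2L 12067383 to 12074354, 6972 bp wide with a score of 80.83. On 3L the highest-scoring and widest broad peak of the arm was 3L 7786873 to 7793863, 6991 bp wide with a score of 80.13. The corresponding peak of 3R was 3R 23701449 to 23708459, 7011 bp wide with a score of 77.55. The highest-scoring of each of these arms thus had nearly the same width.

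Exact widths recurred at sites far apart. The peaks at 2L 12067383, 2L 15586471 and X 4051969 were each 6972 bp wide and scored 80.83, 68.66 and 68.51. A peak at 2L 16153821 was 6973 bp wide with a score of 74.18, and one at 3L 402756 was 6974 bp wide with a score of 73.45. The other peaks of this group were 6966 to 7016 bp wide, including the widest broad peak of 2L, at 10876591 to 10883594 (7004 bp, score 64.26), and that of X, at 11527503 to 11534518 (7016 bp, score 59.94). Apart from the 13, the single peaks of 6.5 to 8 kb were 6907 bp wide on 2L (score 68.25), 6881 bp on 3R (score 67.45) and 6527 bp on 2L (score 63.22). No pair of these 16 loci was closer than 560 kb.

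The 18 single peaks of 1 to 6.5 kb had scores in the same range but no common width. They were 2751 to 6011 bp wide, with scores of 53.96 to 88.57 and a median of 65.7, beside a median of 67.85 for the single peaks of 6.5 to 8 kb. X held 8, 3R 6, 3L 3 and 2L 1. The highest score among all 198 broad peaks was here, at X 706399 to 711914, 5516 bp wide with a score of 88.57. Next came 3R 4694544 to 4698367, 3824 bp wide with a score of 77.19, X 18648385 to 18652002, 3618 bp wide with a score of 72.84, and 3R 22041566 to 22047441, 5876 bp wide with a score of 72.48. No single-peak locus with a broad peak had a width between 762 and 2751 bp.

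Multi-peak loci of 6.5 to 8 kb with a score of 30 or more numbered 30, with 116 peaks, 82 of them broad. Their spans ran from 6865 to 7529 bp with a median of 7376.5 bp, so all but 1 were longer than the widest unbroken peak. Each held 2 to 6 peaks, median 4, which covered 85.5 to 96.4% of the span. Highest scores were 32.06 to 64.87 with a median of 46.33, beside 58.63 to 80.83 in the single peaks of 6.5 to 8 kb. The longest peak of each locus, 2292 to 6232 bp wide, carried the highest score in 23 of the 30.

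The peaks and gaps inside these loci followed a shared layout that could be read in either direction along the chromosome. Each locus was turned so that distances run from the end farther from the midpoint of its longest peak. This was the low-coordinate end in 18 loci and the high-coordinate end in 12. Shorter peaks often lay at that end, but not always. In the locus 3L 17724031 to 17731165, the peak at that end was 2769 bp wide and the peak at the other end 323 bp. Turning puts the longest peak, of median width 5163 bp in a median span of 7376.5 bp, at the far side. It therefore places most gaps in the first part of the locus and largely fixes the high coverage of the rest. Values given below for the stretch near the opposite end are shaped by this turning and are a description. The distances of gaps within the first part are given first.

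Within that part, gaps recurred at similar distances. From 1001 to 1100 bp, only 32.2% of bases were inside a peak in the 18 loci and 38.5% in the 12 mirrored loci, which made this the least covered 100 bp in both sets. Another dip lay at 1701 to 1800 bp in both sets, with 66.0% and 71.2% of bases inside a peak. Near the opposite end a dip lay at 6801 to 6900 bp in the 18 loci, with 77.8% of bases inside a peak, and at 6701 to 6800 bp in the 12 mirrored loci, with 66.7%. The 2 sets were compared by eye and by these values, without a test.

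**Figure D3:**
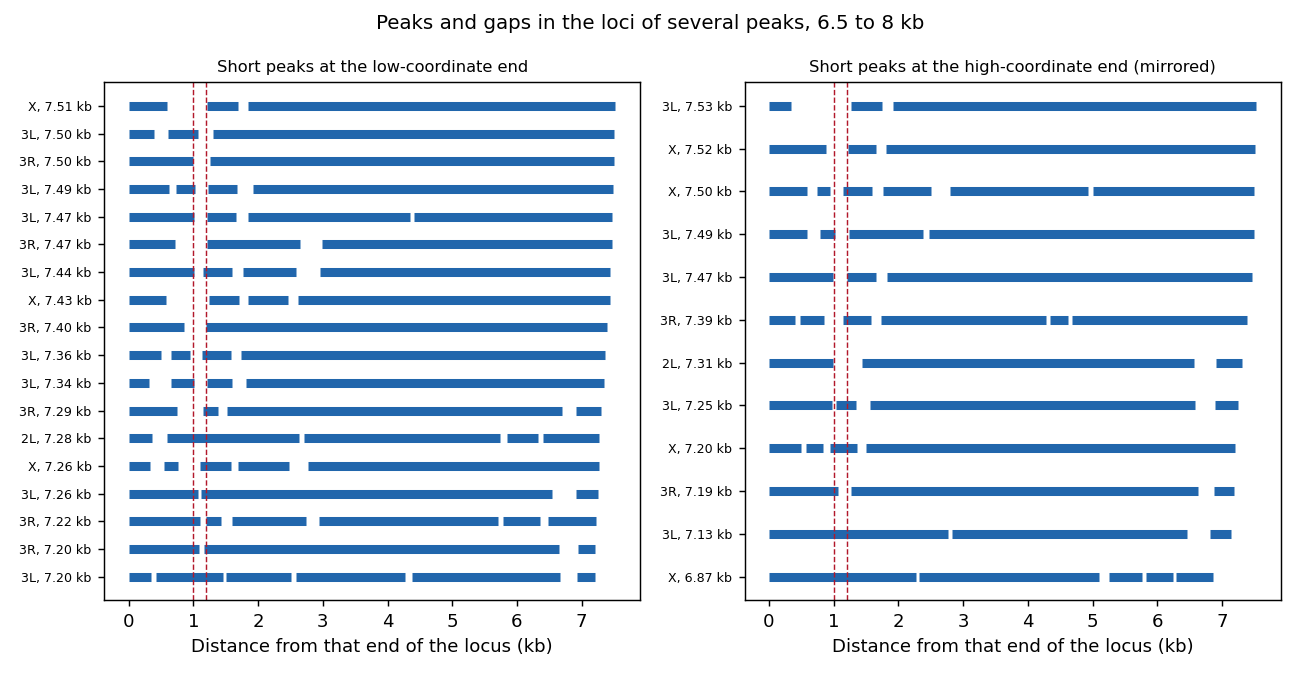
Peaks (bars) along the 30 multi-peak loci of 6.5 to 8 kb, by distance in kb from the end farther from the midpoint of the longest peak. Loci with that end at high coordinates are mirrored on the right. The panel titles name that end by the short peaks, which do not lie there in every locus. Dashed lines mark 1.0 and 1.2 kb, where most loci of both orientations have a gap.

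Counted without turning the loci, a gap that overlapped the stretch 1000 to 1200 bp from an end was found at the low-coordinate end in 17 loci, at the high-coordinate end in 9, at both ends in 0 and at neither in 4. For instance, X 927473 to 934981 had gaps 589 to 1218 bp and 1684 to 1846 bp from its low-coordinate end. The locus X 189946 to 197461 had them 883 to 1216 bp and 1663 to 1812 bp from its high-coordinate end. On 3L, the locus at 17510153 to 17517623 had gaps 992 to 1211 bp and 1656 to 1819 bp from its high-coordinate end. All 3 thus have a short peak between gaps, at almost the same distance from one end or the other.

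Loci of this group also differed in a gap near the opposite end. In 8 of the 30, a gap overlapped the stretch 6600 to 6800 bp from the end farther from the longest peak's midpoint. These loci spanned 7135 to 7309 bp. In 14 others a gap overlapped 1600 to 1800 bp, and these spanned 7219 to 7529 bp. None of the 30 had both. The remaining 8 had neither and spanned 6865 to 7498 bp. This division depends on the edges of the stretches, and no other edges were tried. The locus at 3R 10928256, with a gap from 1429 to 1603 bp, was counted at 1600 to 1800 bp. Those at 3L 19110225 and 3R 23999520, with gaps from 1352 to 1561 bp and 1389 to 1521 bp, were not. The counts therefore do not show separate kinds of locus.

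**Figure D4:**
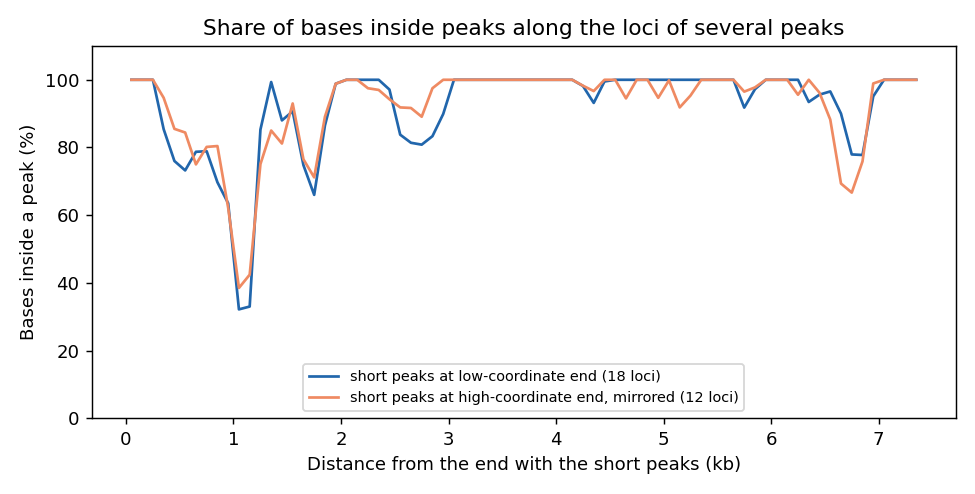
Share of bases inside a peak, in percent (vertical), by distance in kb from the end farther from the midpoint of the longest peak (horizontal). Lines are for the 18 loci with that end at low coordinates and the 12 mirrored loci. The axis and legend name that end by the short peaks, which do not lie there in every locus. Both lines drop to their lowest point, 32.2% and 38.5%, at 1001 to 1100 bp. They also dip between 501 and 700 bp, at 1701 to 1800 bp and between 6601 and 6900 bp.

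Widths of single peaks recurred as well. Among the 93 broad peaks of 1000 bp or more, 34 belonged to 10 runs of at least 3 peaks whose sorted widths differed by 10 bp or less from one to the next. These 34 include the 13 unbroken peaks of 6966 to 7016 bp described above. Runs can also form where widths are dense, and 11 of the 93 peaks were 1000 to 1099 bp wide. How many runs such density would give was not computed, so the 34 is a description. One run held the widths 6966 to 6974 bp, with 7 unbroken peaks on 2L, 3L and X. The 3 peaks of 4486 to 4489 bp, on 3L, 3R and X with scores of 41.27 to 53.33, were all the longest pieces of loci of several peaks. The 3 peaks of 1005 to 1013 bp, all on 3L, were pieces of such loci as well. A run of 5704 to 5706 bp on X joined 2 pieces of such loci and 1 unbroken peak, so equal widths can come from different kinds of locus.

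A pair of high-scoring loci on X had other spans. The locus X 5418951 to 5422737 spanned 3787 bp in 3 peaks, with a highest score of 37.11. Counted from its low-coordinate end, its peaks ended at 555 bp, ran from 1225 to 1660 bp and began again at 1821 bp, so its gaps lay where those of many longer loci lay. The other, X 13940935 to 13955429, spanned 14495 bp in 8 peaks with scores of 13.56 to 67.12.

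The 39 loci of several peaks with highest scores under 30 spanned 1098 to 7293 bp with a median of 3834 bp, and peaks covered a median of 48.7% of the span, beside 93.0% in the higher-scoring multi-peak loci of 6.5 to 8 kb. Their highest scores were 10.02 to 21.05, and their 61 broad peaks were 450 to 1723 bp wide with a median of 594 bp. The highest-scoring examples were 3R 27239489 to 27243514, with 5 peaks and a score of 21.05, and 3R 8746102 to 8750712, with 6 peaks and a score of 20.07. Their highest scores set them apart by definition. The share of the span inside peaks was not used to define them, but it comes from the same peak calls as the score. It ranged from 24.3 to 90.5% here and from 85.5 to 96.4% in the higher-scoring loci, which were limited to spans of 6.5 to 8 kb. The difference in this share is therefore a description.

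The 14 single peaks under 1 kb covered a wide range of scores. They were 450 to 762 bp wide and scored 8.82 to 66.72, with a median of 31.9. The highest was 3R 4723961 to 4724562, 602 bp wide with a score of 66.72, followed by 3L 6328153 to 6328627, 475 bp wide with a score of 58.57, and X 6627352 to 6627848, 497 bp wide with a score of 55.16. These 3 scores fall within the range of the single peaks longer than 1 kb.

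The first of these lay in a group of high-scoring peaks on 3R. Within this stretch, unbroken peaks of 3824 bp at 4694544 to 4698367 (score 77.19) and of 2972 bp at 4729178 to 4732149 (score 55.67) were 30.8 kb apart, with the 602 bp peak between them. Of the 66 loci longer than 1 kb with a highest score of 30 or more, 8 lay within 100 kb of another, and the median distance to the nearest was 406 kb.

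The arms differed in the kinds of locus they held. 2L had 8 of the 16 single peaks of 6.5 to 8 kb but 2 of the 30 higher-scoring loci of several peaks, while 3L had 2 single peaks of that size and 13 of those multi-peak loci. 3R had 2 and 8, and X had 4 and 7. The division into single and multi-peak loci depends on the gaps inside loci. With peaks closer than 500 bp merged, 43 peaks of 6.5 to 8 kb were unbroken in place of 16. Of the 43, 14 were on 3L, 10 on 2L, 10 on 3R and 9 on X. Joined spans, which do not depend on those gaps, also differed by arm. Within 100 bp of 7.0 kb lay 7 loci on 2L and 2 on 3L, and within 100 bp of 7.4 kb 1 and 8. However, all 14 loci near 7.0 kb were single peaks and all 15 near 7.4 kb were higher-scoring loci of several peaks. The spans thus recount loci of the kinds above and are no separate evidence. Of the 39 low-scoring loci of several peaks, 18 were on 2L, 8 on 3R, 7 on 3L and 6 on X. These kinds were defined after the values had been seen, so the counts are given without a test.

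**Figure D5:**
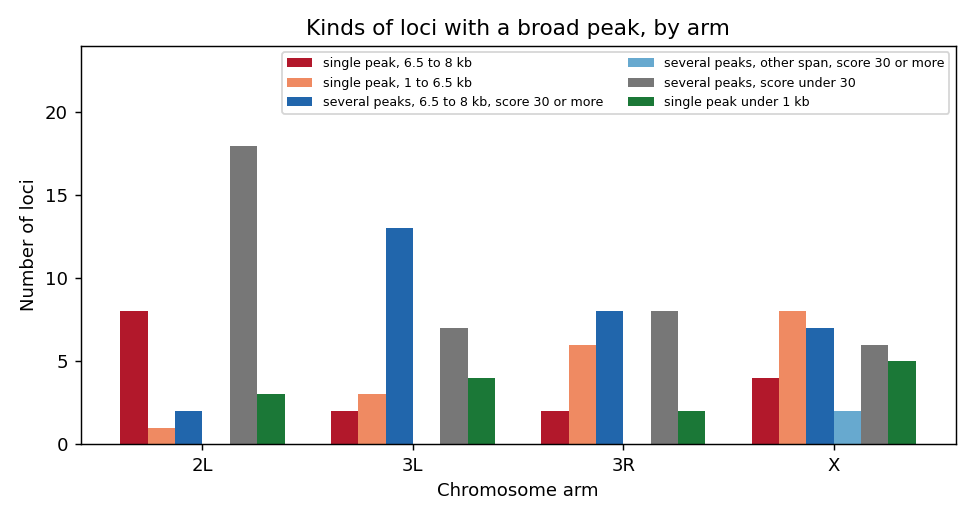
Number of loci (vertical) of each of the 6 kinds on 2L, 3L, 3R and X (horizontal). On 2L the tallest bars are low-scoring loci of several peaks (18) and single peaks of 6.5 to 8 kb (8), and on 3L the tallest is higher-scoring loci of several peaks (13).

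Counts per arm of the broad peaks themselves varied less. X had 56 (2.74 per Mb), 3L 53 (2.37 per Mb), 2L 45 (2.14 per Mb) and 3R 44 (1.703 per Mb, measured from 2 Mb to the end of the last peak of the arm). The median score was 37.8 on X, 31.93 on 3L, 29.71 on 3R and 15.08 on 2L, where 31.1% of broad peaks reached a score of 30, compared with 66.1% on X, 66.0% on 3L and 50% on 3R. Along the arms, broad peaks were found in every full 5 Mb step of the 4 stretches. The steps with the most were the first 5 Mb of X, with 21, and the first 5 Mb of 3L, with 17.

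The joined spans were then set beside the lengths of 23 well-known Drosophila elements, rounded to 0.1 kb and taken from general knowledge. No sequence was compared, so an equal length does not identify an element. Of the 101 loci spanning 2000 bp or more, 52 (51.5%) lay within 100 bp of a listed length, but these windows cover 41.8% of all lengths from 2 to 8 kb. By kind, the share was 14 of 16 single peaks of 6.5 to 8 kb, 21 of 30 higher-scoring loci of several peaks, 4 of 18 shorter single peaks and 13 of 35 low-scoring loci of several peaks. For the shorter single peaks and the low-scoring loci, shares of 22.2% and 37.1% were no larger than the share of lengths covered. The single peaks of 6.5 to 8 kb and the higher-scoring loci were selected by span. Listed lengths of 7, 7.1, 7.4, 7.5 and 7.6 kb crowd in that range. The share of that range within 100 bp of a listed length was not computed. Neither the shares of these kinds nor the 51.5% that includes them can therefore show an excess near listed lengths. Of the 16 single peaks, 13 were 6966 to 7016 bp wide, so their matches are not separate.

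Matches to length clustered at a few values. The 14 unbroken peaks lay within 100 bp of 7.0 kb, the rounded length of the LTR retrotransposon DM297, and 3 of these were also within 100 bp of 7.1 kb, that of HMS-Beagle. No locus of several peaks lay within 100 bp of 7.0 kb. Higher-scoring loci of several peaks were within 100 bp of 7.4 kb in 15 cases, of 7.5 kb in 13 and of 7.6 kb in 4, with overlap between these windows. The list holds 7 LTR elements with those lengths, among them blood, gypsy, mdg1 and DM412. Near 5.1 kb, the length of copia, there were 2 loci, both low-scoring, and near 8.5 and 9.1 kb, the lengths of Tirant and roo, there were 0.

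By arm, the loci within 100 bp of 7.0 kb were 7 on 2L, 4 on X, 2 on 3L and 1 on 3R. Those within 100 bp of 7.4 kb were 8 on 3L, 4 on 3R, 2 on X and 1 on 2L. The same 2 lengths thus ranked the arms in different orders, with 2L first for one and last for the other. The loci near 7.0 kb were all single peaks and those near 7.4 kb all of several peaks, so this repeats the difference in kinds by arm.

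Other sequences of the list were searched for peaks of the same width. Widths of 6900 to 7100 bp were found for 14 of 496 peaks here, beside 2 of 124 peaks on 2R, 1 of 184 on the inner parts of the same 4 arms, 1 of 142 on the heterochromatin scaffolds, 1 of 706 on the unplaced U scaffolds and 0 of 8233 on Uextra. On the mitochondrial genome and chromosome 4 there were 0 of 6 each. Of the broad peaks, 33.8% were 2500 bp or wider on the distal arms, beside 80% (4 of 5) on the mitochondrial genome, 27.1% on 2R, 17.4% on the inner arms, 13.2% on the heterochromatin scaffolds, 7.82% on U, 0.0178% on Uextra and 0 of 1 on chromosome 4. The ends of unplaced scaffolds can cut a peak short, and how much of this difference they account for was not tested.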

How the data were processed

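Input and 2 ChIP samples of Kc167 cells were grouped by their titles. The authors deposited 1 peak list for the series, with a score per peak of unstated scale. Per the file headers it follows FlyBase release 5 and names MACS on each line. CASAVA 1.7.0.2 and 1.7.0.3, BWA, MACS2 and build BDGP5 are named in the submitters' processing notes. For pooling of replicates, use of the input, the threshold and multiply matching reads, the step taken is not given in the sources used here. Depth is unknown.

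Width was end minus start plus 1. Peaks under 3000 bp apart were joined, gaps and spans were measured, and loci were mirrored with pandas 2.3.3, NumPy 2.4.6 and SciPy 1.17.1 in Python 3.11.15 and plotted with Matplotlib 3.10.9. Joining and mirroring were tested on simulated data. The rule for named regions took the widest and highest-scoring peak of each arm, up to 8 of each recurring width or span by score, and the peaks nearest the width threshold, and other regions were chosen after their values were seen. Members and lists were chosen with earlier results of these data known. No test was run, because width and score come from the comparison that chose the peaks. Genes were not assigned, since the gene table follows release 6, and no sequence was used.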

Additional observations from a re-analysis of the deposited data

How the results depend on the processing

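No paired analysis was possible because peaks carry no value per sample, which also meant that leaving out a replicate was not possible. Of 32 alternative values over 9 results, 22 stayed within 1.5 times a count or within the 95% binomial interval of a median or share. The interval served only as a fixed yardstick and measures no error, since peaks of 1 list are not independent replicates. Keeping scores at or above the median lowered the broad peaks to 99, the loci with one to 75 and the loci of 6.5 to 8 kb to 26 (198, 119 and 48 as reported), as fewer peaks enter by construction. It put the median score at 48.8, which follows from selecting by score, and the median width at 3780 bp, where width and score rise together among these peaks. Merging peaks closer than 500 bp closed gaps inside loci: unbroken peaks of 6.5 to 8 kb numbered 43 (16 as reported), and over all broad peaks the median score was 23.1 and the median width 1897.5 bp. A width threshold of 400 bp gave a median width of 732 bp. Within 200 bp of a listed element length lay 72.3% of long loci, where the windows cover 65.1% of lengths. That share includes the loci selected for spans of 6.5 to 8 kb, so it cannot show an excess either. Joining under 1000 or 5000 bp gave 46 and 48 loci of 6.5 to 8 kb. With windows chosen after seeing the data, 1000 to 1100 bp and 900 to 1300 bp from exactly 1 end, 26 and 28 of 30 loci had a gap there (26 as reported). Unknown depth and the lack of replicate values limit every result.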
